A study of Homo sapiens with 2 samples.

Results

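The core snRNP protein genes are 42 human genes for the proteins of the small nuclear ribonucleoproteins (snRNPs) and their closest partners, namely the Sm and LSM ring proteins, the proteins specific to single snRNPs, the SF3A and SF3B subunits, both U2AF subunits and 5 PRPF proteins. They were taken from a list of names, and all 42 matched a gene among the 20098 protein-coding genes of the annotation. A promoter peak of a gene was a MYBL2 peak with at least 1 base within 1000 bp of any of its transcription start sites (TSSs), and the members had 122 such peaks out of 66954 peaks in all. Each gene is described below mainly by its best promoter peak, the one with the largest fold enrichment.

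The study asked how the EWSR1-FLI1 fusion and a variable DNA repeat control the transcription factor MYBL2, of the MYB family, in Ewing sarcoma. To find possible direct targets among genes changed by MYBL2 knockdown, it also profiled MYBL2 binding. The method was chromatin immunoprecipitation followed by sequencing (ChIP-seq). The series has 1 ChIP library, made from unmodified (WT) cells of A673, an established line from an Ewing sarcoma, with a rabbit monoclonal antibody to MYBL2 that the study's methods describe as specific for the phosphorylated, active form. The 1 input library was sheared chromatin of the same WT line without immunoprecipitation, and the labels name no treatment for either. With 1 line and 1 library a group there was no replicate and no test, and no interval below covers the spread between cultures. Poisson intervals of a pileup cover its counting error only. They are too narrow where duplicate reads, which are not independent molecules, were counted. Those of a fold enrichment come from the pileup and take the local background as exact. Binomial and order-statistic intervals treat the listed genes as draws from a larger set.

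An snRNP is a short nuclear RNA with a coat of proteins. The Sm proteins form a ring on the RNAs of the U1, U2, U4 and U5 particles, the LSM proteins form a like ring on U6, and further proteins belong to single particles. U1 recognises the start of an intron, U2 with SF3A and SF3B recognises the branch point near its end, and the tri-snRNP of U4, U6 and U5 then joins to build the spliceosome that cuts the intron out. Dividing cells in general need these genes. MYBL2 is best known for late cell cycle genes, where it works with the MuvB complex, which binds a short element called the cell cycle genes homology region (CHR).

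The sequences under the summits are shown for the 3 members with the strongest peaks, PRPF31, SNRPC and SNRPB, for the 4 other members with a CHR word within 50 bp of the summit, and for SF3A1, which like LSM4 had a MYB and an E2F word outside annotated exons at its summit. They were read from GRCh37, which has the hg19 coordinates of the peaks, and are written 5′ to 3′ on the strand of the member. Capitals mark the CHR word or its reverse complement, at SNRPB the E2F word and at SF3A1 the E2F and MYB words, and words of other classes are in lower case. Stretches over annotated exons are at most 30 bases long, and the others were clipped to bases outside exons, which for SNRPC left no word although AACGG occurred at 30 and 42 bp downstream of the summit. The PRPF31 stretch is chr19:54619038-54619065 (plus strand), that of SNRPC chr6:34725213-34725281 (plus) and that of SNRPB chr20:2451400-2451428 (minus). SF3B3 is shown at chr16:70557768-70557795 (plus), SF3B6 at chr2:24299261-24299288 (minus), LSM3 at chr3:14220342-14220369 (plus), LSM5 at chr7:32530010-32530037 (minus) and SF3A1 at chr22:30752529-30752623 (minus).
PRPF31: aaagttgttgtTTCAAAtgcggccagga
SNRPC: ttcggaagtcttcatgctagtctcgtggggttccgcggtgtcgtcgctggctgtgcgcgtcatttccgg
SNRPB: cggtagcggcgGCGGGAAatcggctgtgg
SF3B3: gtggcttaagtTTTGAAgggaggtagca
SF3B6: cccggagtctaTTCGAAgggggctgcta
LSM3: agggcgcagggTTTGAAacatggcggac
LSM5: gaagcgcgcttTTCAAAgtcgtcccacc
SF3A1: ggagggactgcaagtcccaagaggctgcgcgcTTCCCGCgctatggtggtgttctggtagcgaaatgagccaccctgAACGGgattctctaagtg

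The centre of the CHR word lay 1 bp downstream of the summit at PRPF31, 2 bp upstream at SF3B3 and 4 bp downstream at LSM3. At SF3B6 and LSM5 it lay 27 and 30 bp upstream. The E2F word of SNRPB lay 23 bp upstream of the summit and that of SF3A1 9 bp upstream.

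All 42 members had a promoter peak (100%, exact binomial interval 91.6 to 100%), against 59.4% of all protein-coding genes. Most members have CpG-rich promoters, a class that most housekeeping genes share. The ratio of observed to expected CpG within 500 bp of the outermost TSS was at least 0.6 in 40 of the 42 (95.2%) and in 59.7% of protein-coding genes. Within that class, 40 of 40 members and 79.1% of 12000 genes had a promoter peak. A fold enrichment of at least 5 was reached by 41 members, all but SNRPN (97.6%, background 49.6%). At least 10 was reached by 30 members (71.4%, interval 55.4 to 84.3%, background 23.1%), and at least 20 by 4 (9.52%, interval 2.66 to 22.6%, background 3.76%).

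The fold enrichment is the linear ratio of stacked ChIP fragments at the summit to the local background from the scaled input, as MACS2 writes it. Its median over the members was 12.997 (95% order-statistic interval 10.8 to 14.7). The median was 8.67 over the 11941 bound protein-coding genes and 9.07 over the bound CpG-rich ones. The members thus lay mainly in the upper part of the range, with 35 above the median of bound coding genes and 34 above that of the CpG-rich ones. Counting error on the pileup left 25 members with an interval wholly above 8.67, 16 with an interval that held it and 1, SNRPN, wholly below. The same split was not made over all bound coding genes. The middle member was stronger than 79.0% of bound coding genes. The top 10% of bound coding genes reached 16.8, as did 10 of the 42 members. Between 7 and 20 lay 37 of the members. In bound coding genes the 35th percentile was 7.02 and the 94th 20.5, so many of those genes lay in that range too.

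**Figure D1:**
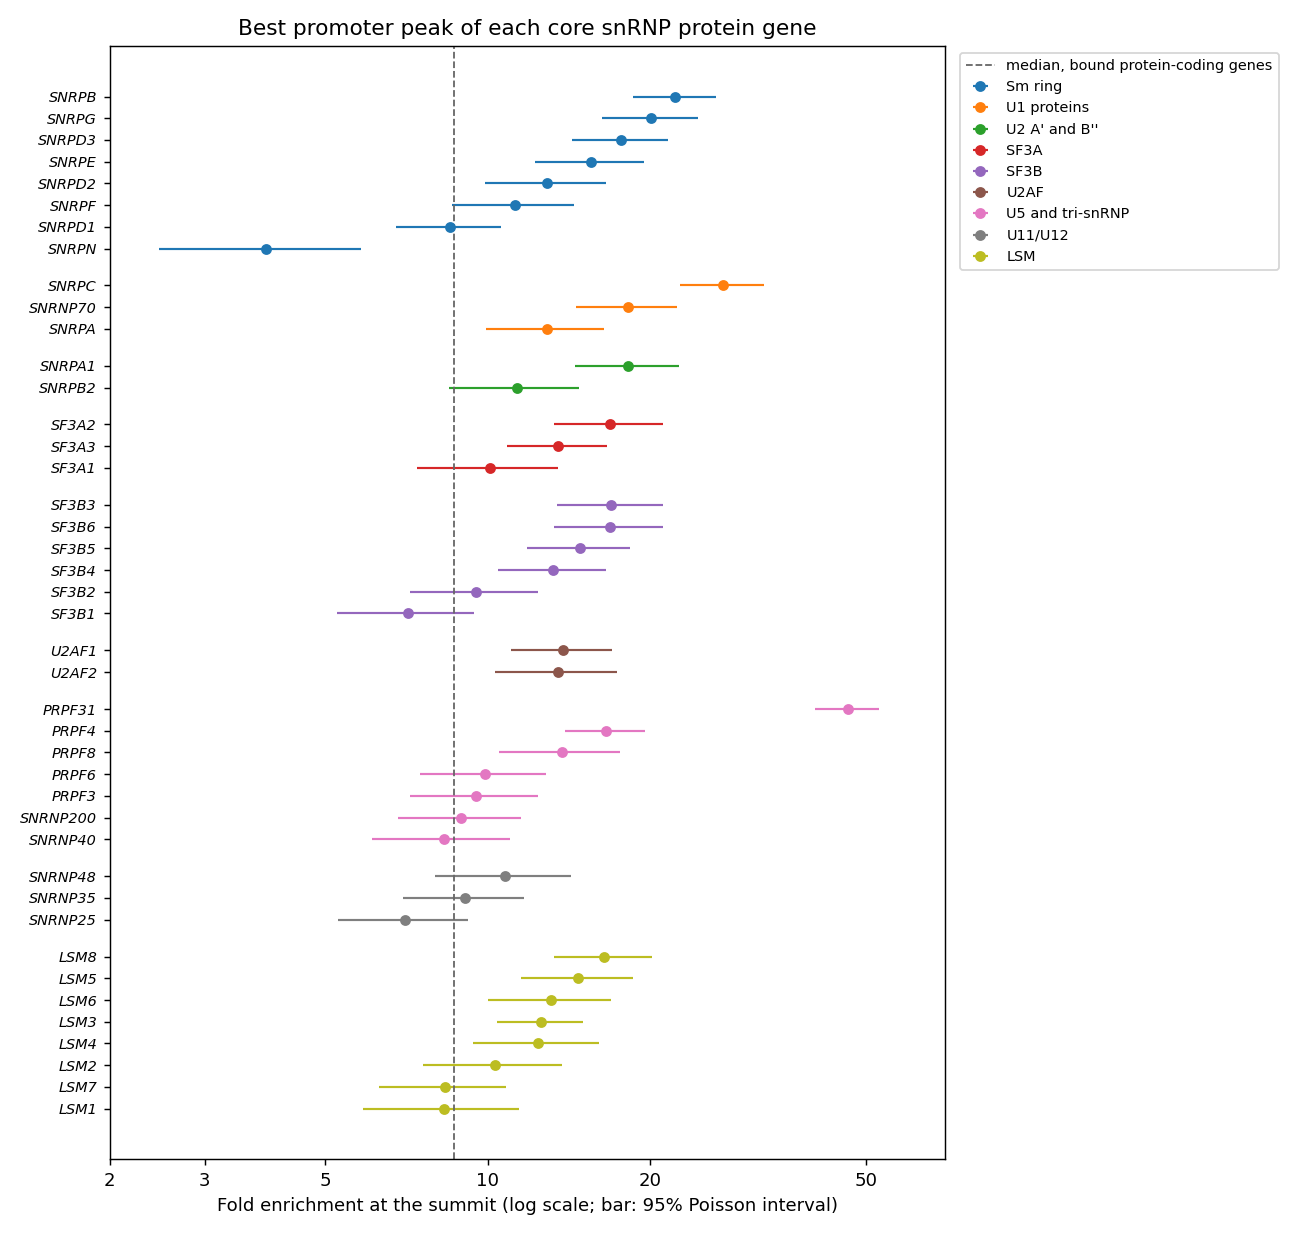
Fold enrichment of the best promoter peak of each of the 42 members on a log axis, by role group, with 95% Poisson intervals (horizontal bars) and the median of 8.67 of bound protein-coding genes (dashed line). PRPF31 at 46.3 and SNRPN at 3.88 stand at the ends, and 37 members lie between 7 and 20, a range that also holds many bound coding genes (35th percentile 7.02, 94th 20.5).

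The pileup, the number of ChIP fragments stacked at the summit, was recovered from the deposited values. It had a median of 61.5 fragments over the members and 43 over bound coding genes. The best peaks were also wider, with a median of 1159 bp against 865 bp. The local background ran from 3.45 fragments, the lowest of all peaks, to 8.40, with a median of 4.12 (3.73 over bound coding genes). At 9 members it stood at that lowest value, so among them the fold enrichment only rescales the pileup. It exceeded 6 fragments at PRPF4, LSM3, SNRPD1 and SNRNP25, as it did at 5.62% of bound coding genes. By pileup PRPF4 (139 fragments) ranked 2 and LSM3 (117 fragments) 5 among the members, yet by fold enrichment they ranked 11 and 24. SNRPD1, with 79 fragments, ranked 14 by pileup and 36 by fold enrichment. What raised the local background there was not tested. Over the 42 members, Spearman's rho between fold enrichment and pileup was 0.83, a description only, since the first is computed from the second.

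**Figure D2:**
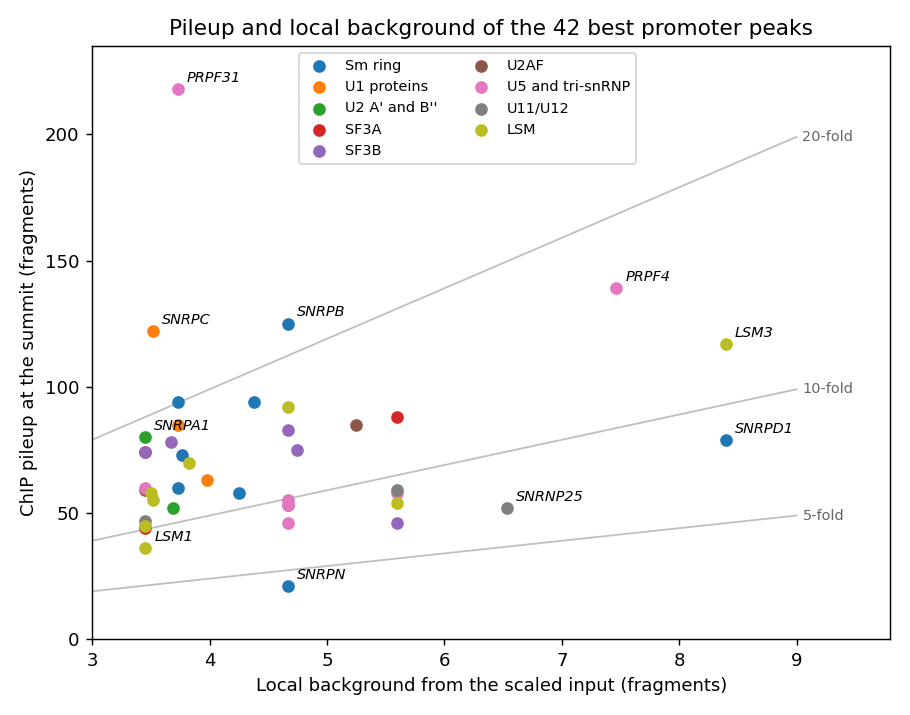
ChIP pileup at the summit against the local background, both in fragments, for the 42 best promoter peaks coloured by role group. Grey lines join points of equal fold enrichment (5, 10 and 20), and PRPF4, LSM3, SNRPD1 and SNRNP25 lie right of 6 fragments of background.

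The Sm ring genes ranged from 3.88 to 22.2. These 8 genes encode the ring proteins themselves, with SNRPN a close relative of SNRPB that is known as an imprinted gene active mainly in brain. Their median fold enrichment was 14.2. SNRPB, which encodes SmB, had the strongest peak of the group, at chr20:2450267-2452142, with 125 fragments (Poisson interval 104.0 to 148.9) and a fold enrichment of 22.2 (interval 18.5 to 26.5), and its summit lay 6 bp upstream of a TSS. SNRPG, for SmG, had 94 fragments (interval 76.0 to 115.0) and a fold enrichment of 20.1 (interval 16.3 to 24.5) at chr2:70519908-70521165, 9 bp downstream of a TSS. Their intervals overlapped, so the order of these 2 genes cannot be told at this depth. SNRPD3 followed with 17.7, SNRPE with 15.5, SNRPD2 with 12.9, SNRPF with 11.2 and SNRPD1 with 8.51. The genes for the 3 SmD proteins therefore spanned 8.51 to 17.7, and the fold enrichment intervals of SNRPD1 (6.76 to 10.6) and SNRPD3 (14.3 to 21.6) did not overlap. The pileup intervals did overlap, with 79 fragments (62.5 to 98.5) at SNRPD1 and 94 (76.0 to 115.0) at SNRPD3. The local background was 8.40 fragments at SNRPD1 and 4.38 at SNRPD3, and its own error is not in these intervals.

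SNRPN was the weakest member. Its peak at chr15:25199941-25200260 was 320 bp wide, held 21 fragments (interval 13 to 32.1) and had a fold enrichment of 3.88 (interval 2.47 to 5.84), close to the median of 3.79 of all 66954 peaks. The summit lay 29 bp upstream of a TSS of SNRPN, and the same peak was at the promoter of SNURF, which shares its transcripts with SNRPN. Only 6.70% of bound coding genes had a weaker best peak. A second promoter peak, 164 bp wide with 13 fragments, had a fold enrichment of 2.96. SNRPN and SF3B2 were the members whose outermost TSS was not CpG-rich (0.388 and 0.345), though at the TSS nearest the summit the values were 0.660 and 0.813. The fold enrichment interval of SNRPN lay below that of every other Sm ring gene.

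The 3 genes for the proteins specific to U1 had a median of 18.2. SNRPC encodes the C protein of U1, which helps U1 hold the start of the intron. Its peak at chr6:34724708-34725862, with 122 fragments (interval 101.3 to 145.7), had a fold enrichment of 27.2 (interval 22.6 to 32.5), second among the members, and the summit was 19 bp upstream of a TSS. SNRNP70, for the U1-70K protein, had 85 fragments (interval 67.9 to 105.1) and a fold enrichment of 18.2 (interval 14.6 to 22.4) at chr19:49588180-49589357, 1 bp upstream. SNRPA, for the A protein of U1, was lowest with 63 fragments (interval 48.4 to 80.6) and 12.9 (interval 9.93 to 16.4) at chr19:41255652-41257802, 3 bp upstream. The fold enrichment interval of SNRPC lay just above that of SNRNP70, while their pileup intervals overlapped. Both intervals of SNRPC lay above those of SNRPA, and those of SNRNP70 and SNRPA overlapped.

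Both genes of the U2 proteins A′ and B″ were bound. SNRPA1, for U2 A′, had 80 fragments (interval 63.4 to 99.6) at chr15:101834595-101835946 and a fold enrichment of 18.2 (interval 14.5 to 22.6), with the summit 9 bp upstream of a TSS. SNRPB2, for U2 B″, had 52 fragments (interval 38.8 to 68.2) at chr20:16710396-16711131 and 11.3 (interval 8.50 to 14.8), with the summit 26 bp upstream. The intervals of the pair touched only at their ends.

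SF3A and SF3B settle U2 on the branch point. The 3 SF3A genes had a median of 13.5. SF3A2 was highest, with 74 fragments (interval 58.1 to 92.9) and a fold enrichment of 16.8 (interval 13.3 to 21.1) at chr19:2236117-2238013, 10 bp downstream of a TSS, and SF3A3 had 13.5. SF3A1 was lowest, with 44 fragments (interval 32.0 to 59.1) and 10.1 (interval 7.41 to 13.5) at chr22:30752382-30753064. Its summit lay 294 bp downstream of its own nearest TSS and 45 bp from one of CCDC157, so it was closer to the start of the neighbour than to that of the member.

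The 6 SF3B genes had a median of 14.0, and SF3B1, whose protein holds the branch point and is a known target of mutation in cancers, had the weakest peak of them. It had 46 fragments (interval 33.7 to 61.4) at chr2:198299333-198300268, a fold enrichment of 7.12 (interval 5.26 to 9.45), and a summit 73 bp downstream of a TSS. SF3B3 had the strongest, with 78 fragments (interval 61.7 to 97.3) at chr16:70557137-70558613, 16.9 (interval 13.4 to 21.1), and a summit 12 bp upstream. SF3B6, whose protein sits beside the branch point adenosine, reached 16.8, SF3B5 14.8, SF3B4 13.2 and SF3B2 9.53. The fold enrichment intervals of SF3B1 and SF3B3 did not overlap, and their pileup intervals were only just apart. SF3B1 and SF3B3 were picked as the weakest and strongest of the 6, so this gap does not show that the subunits of 1 complex differ. The error of the local background (5.60 fragments at SF3B1, 3.67 at SF3B3) was not counted.

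U2AF marks the end of the intron, with U2AF2 on the pyrimidine tract and U2AF1 on the final AG. Their fold enrichments were nearly equal. The pileup was larger at U2AF1, but the pileup intervals overlapped, so the order cannot be told at this depth. U2AF1 had 85 fragments (interval 67.9 to 105.1) at chr21:44526955-44528341, a fold enrichment of 13.8 (interval 11.03 to 17.0) and a summit 20 bp downstream of a TSS. U2AF2 had 59 fragments (interval 44.9 to 76.1) at chr19:56166360-56167276, 13.5 (interval 10.3 to 17.3) and a summit 93 bp downstream. U2AF2 was the member with the strongest second promoter peak, at chr19:56165015-56166256, with 55 fragments and a fold enrichment of 12.6.

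Of the 7 genes for U5 and tri-snRNP proteins, PRPF31 stood far above the rest. PRPF31 binds U4 and holds the tri-snRNP together, and the gene is known for inherited retinal degeneration. Its peak at chr19:54618305-54619350 held 218 fragments (interval 190.0 to 248.9) and had a fold enrichment of 46.3 (interval 40.4 to 52.8), wholly above the interval of every other member. It ranked 25 among all 66954 peaks, and 99.8% of bound coding genes had a weaker best peak. The summit lay 83 bp upstream of a TSS of PRPF31 and 14 bp from one of TFPT, a gene on the opposite strand, so the peak cannot be given to PRPF31 alone.

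The other genes of that group were weaker, and the median of the 7 was 9.89. PRPF4, which with PRPF3 belongs to the U4/U6 particle, had 16.5, and PRPF3 9.53. PRPF8, the large protein at the heart of the spliceosome, had 13.7. PRPF6, which bridges U5 and U4/U6, had 9.89, and SNRNP200, the helicase that unwinds U4 from U6, 8.94. SNRNP40, a U5 protein, was lowest, with 46 fragments (interval 33.7 to 61.4) at chr1:31768838-31770239 and a fold enrichment of 8.30 (interval 6.12 to 11.01). Its summit was the farthest from its own gene, 318 bp upstream of the nearest TSS, and 70 bp from one of ZCCHC17. The intervals of SNRNP40, SNRNP200, PRPF3 and PRPF6 all held the median of 8.67 of bound coding genes.

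The 3 genes for proteins of the U11/U12 particle, which serves the minor class of introns, had the lowest median of the groups, 9.10. SNRNP48 had 47 fragments (interval 34.5 to 62.5) at chr6:7590082-7590677 and a fold enrichment of 10.8 (interval 7.98 to 14.3), with the summit 37 bp downstream of a TSS. SNRNP35, the counterpart of U1-70K, had 9.10. SNRNP25 had 52 fragments (interval 38.8 to 68.2) at chr16:102834-104157 and 7.04 (interval 5.29 to 9.19). Its summit lay 251 bp upstream of its TSS and 31 bp from one of POLR3K. All 3 intervals held 8.67, so these genes cannot be set apart from the middle of the bound coding genes.

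The 8 LSM genes had a median of 12.5. LSM2 to LSM8 form the ring on U6, while LSM1 in place of LSM8 makes the cytoplasmic ring of mRNA decay. LSM8 had the strongest peak, with 92 fragments (interval 74.2 to 112.8) at chr7:117823199-117825056, a fold enrichment of 16.4 (interval 13.3 to 20.1) and a summit 55 bp upstream of a TSS. LSM1 had the weakest, 654 bp wide with 36 fragments (interval 25.2 to 49.8), 8.31 (interval 5.89 to 11.4) and a summit 73 bp upstream. The intervals of LSM8 and LSM1, the members that tell the nuclear from the cytoplasmic ring, did not overlap. LSM7 was nearly as low as LSM1, with 54 fragments (interval 40.6 to 70.5) at chr19:2327629-2328963 and 8.34 (interval 6.30 to 10.8), 10 bp upstream of a TSS. Between them lay LSM5 with 14.7, LSM6 with 13.1, LSM3 with 12.6, LSM4 with 12.4 and LSM2 with 10.3.

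Summits sat close to starts of transcription. In 35 of the 42 members (83.3%, interval 68.6 to 93.0%) the best summit was within 100 bp of a TSS of the gene, against 58.6% of bound coding genes. When only the outermost TSS of each gene was counted, the share was 24 of 41 members (58.5%) against 40.0% of bound coding genes. The median distance was 26 bp in members and 73 bp in bound coding genes, while members had a median of 7 annotated TSSs and bound coding genes 5, and the part of the number of TSSs in this difference was not tested. Upstream of the TSS lay 22 of the 42 summits, near the share in bound coding genes (54.2%), and 20 lay at or downstream of it. By the canonical transcript, 18 summits were upstream of the gene, 16 in a 5′ UTR exon, 6 in an intron and 2 in a coding exon (SF3B2 and SNRNP48). That split was not made over all bound coding genes, so it has no background here.

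Neighbouring genes shared many of these peaks. The best peak of 16 members (38.1%, interval 23.6 to 54.4%) was also a promoter peak of another protein-coding gene, against 30.7% of bound coding genes, a background within the interval. In 15 of the 16 the other gene lay on the opposite strand, and the exception was SNRPN with SNURF. The summit was nearer to a TSS of the other gene in 7 members (16.7%, background 15.6%), namely SF3A1, SNRNP40, PRPF4, PRPF31, SNRNP25, LSM1 and LSM7. At PRPF4 it lay 114 bp from its own start and 21 bp from that of CDC26, at LSM1 73 bp and 22 bp from that of BAG4, and at LSM7 10 bp and 6 bp from that of SPPL2B. In the other 9 the member's start was nearer. At SNRPD3 it was 6 bp away and that of GUCD1 29 bp, and at LSM3 35 bp and that of XPC 231 bp. PRPF6 with SAMD10 was the widest pair, at 24 bp and 1148 bp. Members that shared their peak had a median fold enrichment of 12.7 and the 26 others 13.4, while in bound coding genes shared peaks had the higher median (10.3 and 7.94). The members' median was thus as large without the shared peaks.

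**Figure D3:**
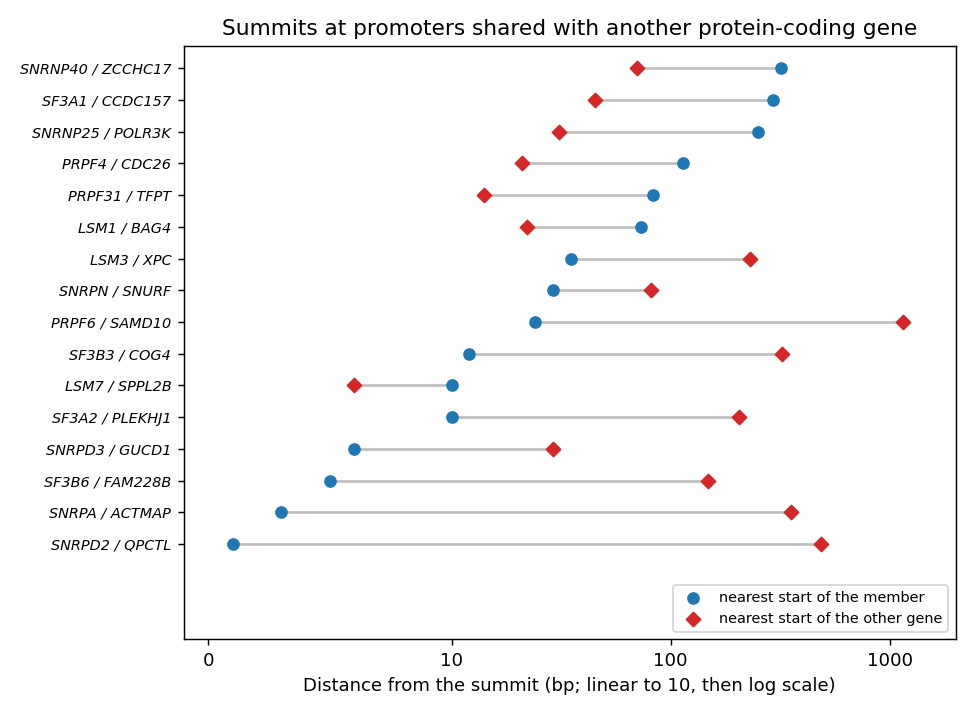
Distance in bp from the best summit to the nearest TSS of the member (circles) and of the neighbouring protein-coding gene at the same peak (diamonds), for the 16 members with a shared peak, on an axis that is linear to 10 bp and logarithmic beyond. Diamonds lie left of circles in 7 members, among them PRPF31 with TFPT at 14 bp.

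Further promoter peaks were common and mostly below a fold enrichment of 5. At least 2 promoter peaks were found in 30 members (71.4%, background 46.9% of bound coding genes), with exactly 1 in 12, 2 in 14 and 3 or more in 16. A gene with more TSSs has more windows, some far inside the gene, and the part of the number of TSSs in this difference was not tested. The second-best peak reached a fold enrichment of 5 in 6 members, U2AF2 with 12.6, LSM5 with 9.44, SNRPD3 with 7.79, SF3B3 with 6.71, PRPF8 with 5.62 and SNRPB with 5.39. The share of bound coding genes with such a second peak was not counted. SF3B3 had the most promoter peaks, 19, over its 15 TSSs. Peaks also lay in the gene outside the promoter windows in 27 members (64.3%, interval 48.0 to 78.4%), 131 peaks in all. The background was 38.0% of all coding genes, with or without a promoter peak and not matched for gene length, so the shares are not directly comparable. SNRPD1 and SF3B3 had 15 each, or 7.07 and 2.78 per 10 kb of gene, and SNRNP70 had 11. By chromosome, 8 members (19.05%, interval 8.60 to 34.1%) were on chromosome 19, which holds 7.36% of coding genes, and their median fold enrichment of 13.2 was close to the 12.8 of the rest.

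Short sequence words were searched on both strands within 50 bp of each best summit, beside the same search at all 11941 bound coding genes. The words were AACGG and AACTG for MYB sites, TTTGAA and TTCGAA for the CHR, and CCAAT for the CCAAT box. For E2F sites the words were TTCCCGC, followed in the search by TTGGCGC, followed further by TTCGCGC, followed lastly by TTGCCGC. The word for ETS factors was CCGGAAG, that for the GC box GGGCGG, that for NRF1 TGCGCA and that for YY1 ATGGCGG. No word contains another, and a match is a description of the sequence and not a binding site.

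MYB words were the most frequent, at 14 members (33.3%, interval 19.6 to 49.5%, background 21.9%). They were SNRPD2, SNRPF, SNRPC, SNRPB2, SF3A1, SF3A2, SF3B3, SF3B4, SNRNP40, SNRNP25, SNRNP48, LSM1, LSM4 and LSM8. The CHR words were at 5 (11.9%, interval 3.98 to 25.6%, background 3.93%), the genes shown above. E2F words were at 7 (16.7%, background 8.93%), SNRPB, SNRPN, SF3A1, SNRNP25, LSM3, LSM4 and LSM6. The CCAAT box was at 4 (9.52%, background 10.0%), PRPF31, SNRPA1, LSM8 and LSM1. Of the 5 genes with a CHR word, PRPF31 also had the CCAAT box, LSM3 an E2F and a YY1 word, and SF3B3 a MYB and a YY1 word. SF3B6 also had an ETS word, and LSM5 an ETS and a YY1 word.

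The ETS word was at 8 members (19.05%, interval 8.60 to 34.1%, background 8.54%), SNRPD1, SNRPE, SNRPB2, SF3A3, SF3B2, SF3B6, PRPF6 and LSM5. The YY1 word was at 7 (16.7%, interval 6.97 to 31.4%, background 5.69%), SNRPD1, SNRPD3, SF3B3, U2AF2, PRPF8, LSM3 and LSM5. The GC box was at 8 (19.05%, background 29.3%) and the NRF1 word at 2 (4.76%, background 3.98%), SF3A3 and PRPF8. The background lay inside the interval for MYB, E2F, CCAAT, GC box and NRF1 words and just below it for CHR, ETS and YY1 words. Within 100 bp of the summit, CHR words were still at 5 members, but the background was 7.48%, inside the interval. With 8 classes searched, 42 members and no test, these are descriptions. At least 1 word was at 34 members, and at 8 members, SNRPG, SNRPA, SNRNP70, SF3B1, SF3B5, U2AF1, PRPF4 and SNRNP35, none of these words was in the window. The share of bound coding genes with at least 1 word was not counted, so the 34 cannot be called a trait of the members.

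**Figure D4:**
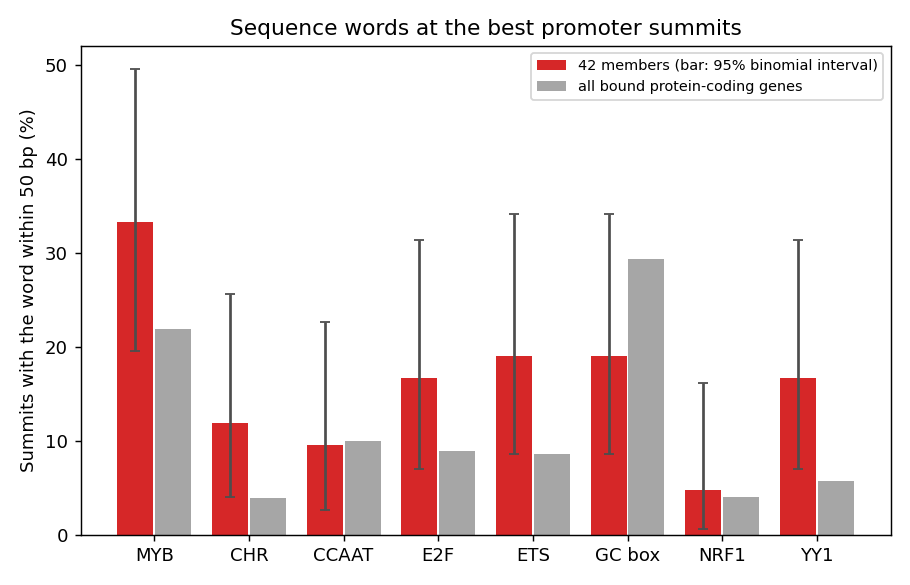
Share of best summits in percent with each class of word within 50 bp, for the 42 members (red bars with 95% binomial intervals) and all 11941 bound protein-coding genes (grey bars). The members' bar is lower than the grey bar for the GC box (19.05 and 29.3%) and the CCAAT box (9.52 and 10.0%) and higher for the other 6 classes, with intervals that hold the grey value in 5 of the 8.

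Median strength was higher with some words and lower with others. Members with a CHR word had a median fold enrichment of 16.8 and the 37 others 12.9, and over bound coding genes the medians were 10.1 and 8.65. Members with a MYB word had 11.9 and those without 13.5, whereas over bound coding genes the medians were 9.09 and 8.54. Members with an ETS word had 12.4 and those without 12.997.

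The other genes of the same pathway, lists of 71 spliceosome and snRNP assembly genes outside the members, were bound nearly as often. A promoter peak was found in 70 of the 71, all but LSM11 of the U7 particle, with a median fold enrichment of 10.6, and 42 reached 10. Of the SMN complex and its partners, which assemble the Sm ring, 15 genes were listed, without SMN1 and SMN2. All 15 were bound, with a median of 10.5, from DDX20 (40.8) to COIL (4.85). The other U5 and tri-snRNP genes, 11 of 11, had a median of 11.4, from DDX23 (33.6) to AAR2 (5.44). The PRP19 complex and related genes, 14 of 14, had 10.1, from CTNNBL1 (24.1) to CRNKL1 (4.70), and the other U1, U2 and branch site genes, 14 of 14, had 12.0, from LUC7L2 (33.2) to HTATSF1 (5.65). The genes for splicing helicases and the second step, 9 of 9, were weakest with 7.86, from CWC25 (19.3) to PRPF18 (3.53). Of the minor spliceosome and U7 genes 7 of 8 were bound, with 11.7, from RNPC3 (23.7) to ZRSR2 (8.12).

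Set beside 2 other housekeeping classes, the core snRNP genes lay between them. SR splicing factor genes, whose proteins guide splice site choice, were bound in 12 of 12 cases with a median of 18.6, from SRSF7 (31.9) to SRSF8 (3.59). Proteasome subunit genes were bound in 32 of 32, with a median of 11.3, from PSMB6 (26.3) to PSMD6 (5.62). Since all 3 classes were bound throughout, the presence of a promoter peak did not tell them apart, and nothing in the strength of the peaks was tested between them.

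**Figure D5:**
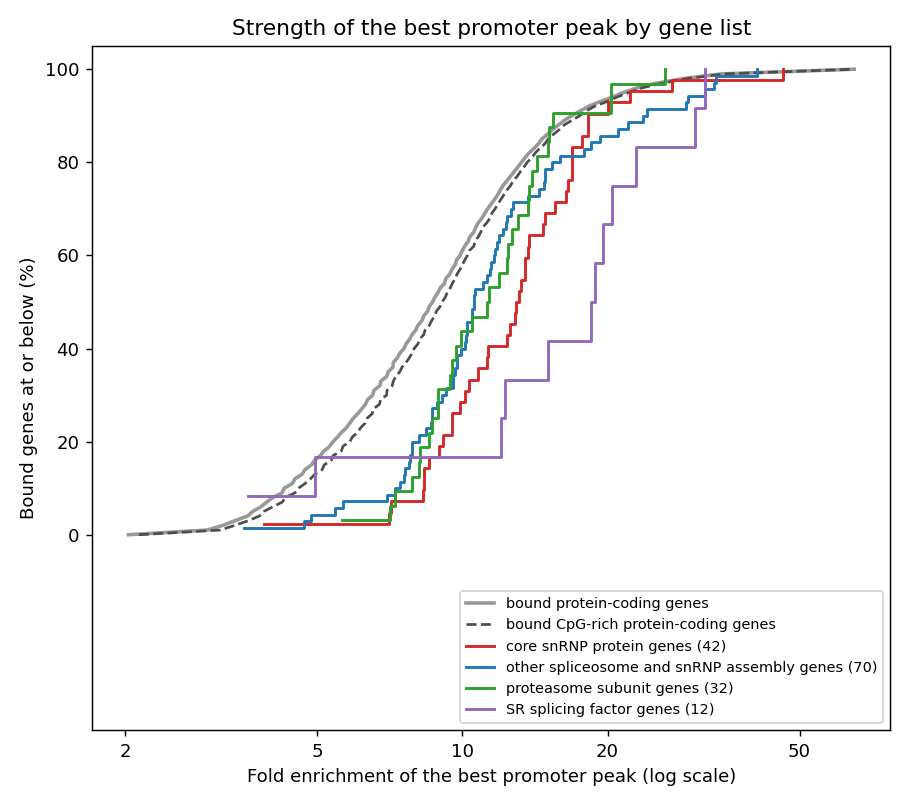
Cumulative share in percent of bound genes at or below each fold enrichment of the best promoter peak (log axis) for the 42 members, 70 other spliceosome and snRNP assembly genes, 32 proteasome genes, 12 SR genes and all bound protein-coding genes (grey, and dashed for CpG-rich ones). The curve of the members crosses 50% at 12.997, right of the pathway, proteasome and background curves and left of the SR curve at 18.6.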

How the data were processed

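MYBL2 ChIP and input from A673 cells (1 library each) were sequenced as single-end reads. The authors aligned them to hg19 (Bowtie2), and narrow peaks were called by MACS2 (2.0.10 in the submitters' processing notes) against the input. How the deposited list was then cleaned is not given in the sources used here. Its values are the authors' fold enrichment (a linear ratio), −log10 p, −log10 q and a deposited score equal to 10 times −log10 q without decimals. From fold enrichment, (pileup + 1) / (background + 1), and the Poisson p, whole-number pileups were solved for all 66954 peaks (largest misfit 3.49e-05 in −log10 p, at least 0.012 for the next whole number). Pileups ran from 11 to 293 fragments (median 20), which sets the precision. Read totals were not used.

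TSSs came from the GENCODE v44 annotation lifted to GRCh37 (20098 protein-coding genes, 146299 TSSs), and 0 peaks lay beyond a chromosome end. Distances are signed by gene direction. Shares carry exact (Clopper-Pearson) and pileups exact Poisson intervals at 95%. No test was made. Members and lists were chosen with earlier results of these data known. Full values were given for the 6 strongest and 6 weakest members, the highest and lowest of each role group and any summit over 300 bp from its gene, and from each pathway list the highest and lowest gene. Python 3.11.15, scipy 1.17.1, numpy 2.4.6, pandas 2.3.3 and samtools 1.23.1 were used, and the scripts were tested on simulated data. Alternatives were other peak thresholds, promoter and summit windows, TSS sets, the overlap rule and rankings.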

Additional observations from a re-analysis of the deposited data

How the results depend on the processing

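No paired analysis was possible because ChIP and input were single libraries. Of 90 recomputed shares, counts and medians, 87 stayed within the interval of the reported share or median or within 1.5 times the count, and 3 moved. With the outermost TSS only, 58.5% of members had the summit within 100 bp (83.3% as reported), as fewer starts were counted. Within 100 bp of the summit the CCAAT box was at 26.2% of members (background 20.2%, 9.52% as reported) and the GC box at 42.9% (background 51.6%, 19.05% as reported), in a window with more bases. Within their intervals, the NRF1 word went to 14.3% (background 8.73%), the ETS word to 28.6% (15.7%) and MYB words to 47.6% (37.8%), while the background of CHR words rose to 7.48%. All 42 members kept a promoter peak with −log10 q of at least 5, in windows of 500 bp and 5000 bp upstream, and by summit. SNRPN lost its peak with fold enrichment of at least 5 and with the outermost TSS only. The median fold enrichment stayed between 12.9 and 13.4, the latter over the 26 members whose best peak was at no other coding gene, an alternative chosen after seeing the data, as was leaving out SNRPN (13.1). Of 209 values of single members 206 stayed. SF3A3 became 17.5 with 5000 bp upstream, and with the outermost TSS only SNRNP200 became 4.27 and LSM5 9.44. Counting error limits weak peaks such as that of SNRPN, with 21 fragments, most.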
